A study of Mus musculus with 6 samples.

Results

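The genes that encode histone demethylases and deacetylases were described here in maps of Tex10 binding and of histone H3 trimethylated at lysine 4 (H3K4me3) in mouse primordial germ cell-like cells. The set holds the protein-coding genes of chromosomes 1 to 19 whose symbol is Kdm followed by a number, Hdac followed by a number, or Sirt1 to Sirt7, in GENCODE release M21. There were 31 such genes among 20807, and all 31 belong to the 20722 genes with an annotated coding transcription start site (TSS). They comprise 15 demethylases, 9 classical deacetylases and 7 sirtuins. The rule reads names and no measured value, but the families were picked with earlier results of these data known. The genes of these families on the X and Y chromosomes are outside the set.

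Histone demethylases remove methyl groups from lysines of histone tails. Kdm1 enzymes do so by a flavin-dependent oxidation, and the other Kdm families carry a JmjC domain that uses iron and 2-oxoglutarate. Deacetylases remove acetyl groups. The classical Hdac enzymes depend on zinc, whereas sirtuins consume NAD. Primordial germ cells are known for a broad resetting of histone marks and DNA methylation, and the H3K4me3 mark lies at promoters, most often at those rich in CpG dinucleotides.

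The study profiled cultured germ cell-like cells of strain 129Sv/J at day 2 by chromatin immunoprecipitation and sequencing (ChIP-seq). The 6 untreated samples were 2 with an antibody against the HA tag, 2 with an antibody against H3K4me3 and 2 of input DNA. All carried Tex10 with an HA tag at its C-terminus, so Tex10 sites were read through the tag, and a line without the tag was not analysed here. Tex10 is a nuclear protein known from ribosome assembly and from pluripotent cells. The deposited lists hold 4331 HA-Tex10 and 29072 H3K4me3 intervals, as 1 list per antibody without height or score, and how the 2 replicates entered a list is not given in the sources used here. No spread between replicates and no test between samples can therefore be given, and the sequencing depth is unknown. An interval was assigned to a gene when it came within 1 kb of a coding TSS, and a gene with an H3K4me3 interval there is called marked. All coordinates are on GRCm38 (mm10) and count from 1. Marker genes chosen after the data were seen are given as a description and do not settle the label of the cells. Of 6 germ cell specification genes 4 were marked, Prdm1, Tfap2c, Prdm14 and Kit, a share near the 62.6% of all coding genes, while Dppa3 and Nanos3 had no interval. Pou5f1, Sox2 and Nanog were marked, and of 6 genes of other tissues 1 was, Myod1, with an interval of 108 bp.

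The sequences below carry the contrasts described afterwards. They are read 5′ to 3′ on GRCm38 with CpG dinucleotides in capitals, and they were kept clear of annotated exons. The central 300 bases of the HA-Tex10 interval at Kdm4a, chr4:118180186-118180485 on the minus strand, are shown because this is the only such interval at a TSS of the set.
Kdm4a interval: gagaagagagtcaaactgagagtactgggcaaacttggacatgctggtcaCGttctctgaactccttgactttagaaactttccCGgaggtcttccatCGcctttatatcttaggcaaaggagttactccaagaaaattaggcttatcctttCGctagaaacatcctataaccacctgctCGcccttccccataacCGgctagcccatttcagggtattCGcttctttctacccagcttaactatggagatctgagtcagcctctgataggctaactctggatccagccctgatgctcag
Next come stretches just upstream of TSS without and with H3K4me3 in the same gene, from the RefSeq promoters of GRCm38.p6. They are Hdac7 at chr15:97844503-97844752 (no H3K4me3) and chr15:97831768-97831837 (H3K4me3), both on the minus strand, and Kdm4c at chr4:74242247-74242496 (no H3K4me3) and chr4:74251715-74251878 (H3K4me3), both on the plus strand.
Hdac7 unmarked TSS: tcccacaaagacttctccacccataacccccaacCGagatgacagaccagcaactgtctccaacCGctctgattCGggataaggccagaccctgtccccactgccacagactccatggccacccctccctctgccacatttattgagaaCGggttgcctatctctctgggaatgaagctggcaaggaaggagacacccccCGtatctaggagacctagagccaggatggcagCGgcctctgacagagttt
Hdac7 marked TSS: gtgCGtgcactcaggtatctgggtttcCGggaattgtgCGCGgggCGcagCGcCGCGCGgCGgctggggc
Kdm4c unmarked TSS: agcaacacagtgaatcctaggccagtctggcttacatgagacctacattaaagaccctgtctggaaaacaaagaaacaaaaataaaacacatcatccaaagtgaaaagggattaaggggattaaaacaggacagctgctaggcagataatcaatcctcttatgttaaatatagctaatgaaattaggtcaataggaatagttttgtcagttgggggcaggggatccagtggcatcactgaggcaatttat
Kdm4c marked TSS: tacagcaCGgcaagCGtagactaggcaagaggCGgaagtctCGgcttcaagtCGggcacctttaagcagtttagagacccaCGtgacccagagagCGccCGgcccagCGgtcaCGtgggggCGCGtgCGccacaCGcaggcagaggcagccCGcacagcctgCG
The last pair belongs to Hdac9, the gene of the set without a marked TSS. The first lies upstream of its outermost RefSeq start, chr12:34917096-34917345 on the minus strand. The second is a unit of the tandem repeat under the HA-Tex10 interval inside the gene, chr12:34067483-34067694, written on the plus strand.
Hdac9 upstream stretch: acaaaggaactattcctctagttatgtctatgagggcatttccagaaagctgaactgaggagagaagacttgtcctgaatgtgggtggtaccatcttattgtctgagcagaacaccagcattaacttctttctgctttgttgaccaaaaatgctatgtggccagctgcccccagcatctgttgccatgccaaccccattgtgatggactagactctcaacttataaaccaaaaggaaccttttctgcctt
Hdac9 repeat unit: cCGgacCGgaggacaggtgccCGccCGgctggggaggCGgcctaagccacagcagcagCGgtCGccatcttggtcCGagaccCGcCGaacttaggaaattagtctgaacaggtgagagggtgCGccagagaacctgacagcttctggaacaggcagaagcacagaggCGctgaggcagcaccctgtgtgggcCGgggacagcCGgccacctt

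HA-Tex10 was found at a TSS of 1 of the 31 genes, Kdm4a, which encodes a demethylase of H3 lysines 9 and 36. This is 3.23% of the set (95% Wilson interval 0.572 to 16.2%), against 9.13% of all coding genes. Among marked genes only it is 1 of 30 (3.33%, 0.591 to 16.7%), against 14.3% of all marked genes. Both background shares lie inside the intervals of the set. Among the 9 classical deacetylases and 7 sirtuins the count was 0 of 16, for which 3 counts set an upper limit of 18.8%. The intervals cover the counting of genes only.

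The Kdm4a interval (ENSMUSG00000033326.15, minus strand) ran from 118180106 to 118180565 on chromosome 4. It was 460 bp wide, and 91.3% of the 4129 HA-Tex10 intervals on these chromosomes were narrower. It lay 63 bp upstream of the outermost Kdm4a TSS, outside the transcribed region, and wholly inside an H3K4me3 interval of 2094 bp that reached 687 bp upstream and 1406 bp downstream of that TSS. None of its 32-base words was repeated in the reference. The printed window holds 7 CpG dinucleotides and has a GC content of 47.3%. The 1771 HA-Tex10 intervals at coding TSS had a median of 21 CpG (interquartile range 15 to 27) and 61.7% GC in windows of the same length, and 7.4% of them held fewer CpG. No non-coding gene of GENCODE M21 lay within 1 kb of the interval.

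The other Kdm4 genes had no HA-Tex10 interval near a TSS, although all were marked. The nearest lay 78.4 kb from Kdm4b, 635 kb from Kdm4d and 807 kb from Kdm4c. Their H3K4me3 intervals ranged more widely than in any other family of the set, from 897 bp at Kdm4b and 1555 bp at Kdm4d to 4507 bp at Kdm4c, with Kdm4a between them at 2094 bp.

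Outside 1 kb, the nearest HA-Tex10 intervals to the set lay at Sirt4, which encodes a mitochondrial sirtuin. They were 284 and 219 bp wide and lay 4.9 and 5.5 kb upstream of its TSS. The nearest annotated genes were snRNA genes, with Gm24265 28 bp from the former interval and Gm24407 overlapping the latter. Neither interval met H3K4me3, and 40.4% of the 32-base words of the latter occur more than once in the reference. Within 10 kb of a TSS there were no others, which left the set at 2 of 30 marked genes (6.67%), against 19.5% of all marked genes. Within 20 kb the shares were 13.3% and 24.8%, and within 50 kb 36.7% and 36.8%. At 100 kb, 15 of 30 marked genes of the set had HA-Tex10, against 49.6% of all marked genes, and the median distance was 120 kb against 103 kb. The plot of distances shows the same values over the whole range.

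**Figure D1:**
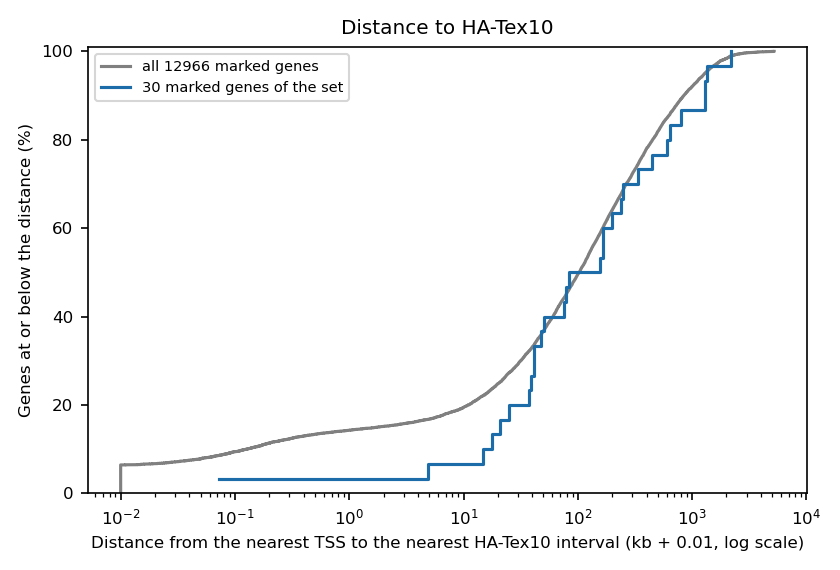
Share of genes (y axis, %) whose nearest HA-Tex10 interval lies at or below the distance on the x axis (kb from the nearest coding TSS, plus 0.01, log scale), for the 30 marked demethylase and deacetylase genes and all 12966 marked genes. The curve of the set starts with Kdm4a and Sirt4 and lies below that of all marked genes at 20 kb (13.3% against 24.8%), while at 50 kb the curves are close (36.7% against 36.8%).

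H3K4me3 was present at a TSS of 30 of the 31 genes (96.8%, Wilson interval 83.8 to 99.4%), against 62.6% of all coding genes. All 15 demethylases, all 7 sirtuins and 8 of 9 classical deacetylases were marked. The exception was Hdac9. The width of the widest interval at a TSS had a median of 1566.5 bp over the 30 genes (95% interval from order statistics 1220 to 2101 bp), compared with 1360 bp over the 12966 marked genes. Widths ran from 558 bp at Kdm6b to 5748 bp at Kdm2b. Where the widest interval contained the outermost TSS, it reached farther downstream than upstream of it in 18 of 21 genes, against 80.7% of 9170 such genes in all. Over all 30 genes the count was 26, against 83.6% of marked genes, which includes intervals that lie wholly downstream.

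**Figure D2:**
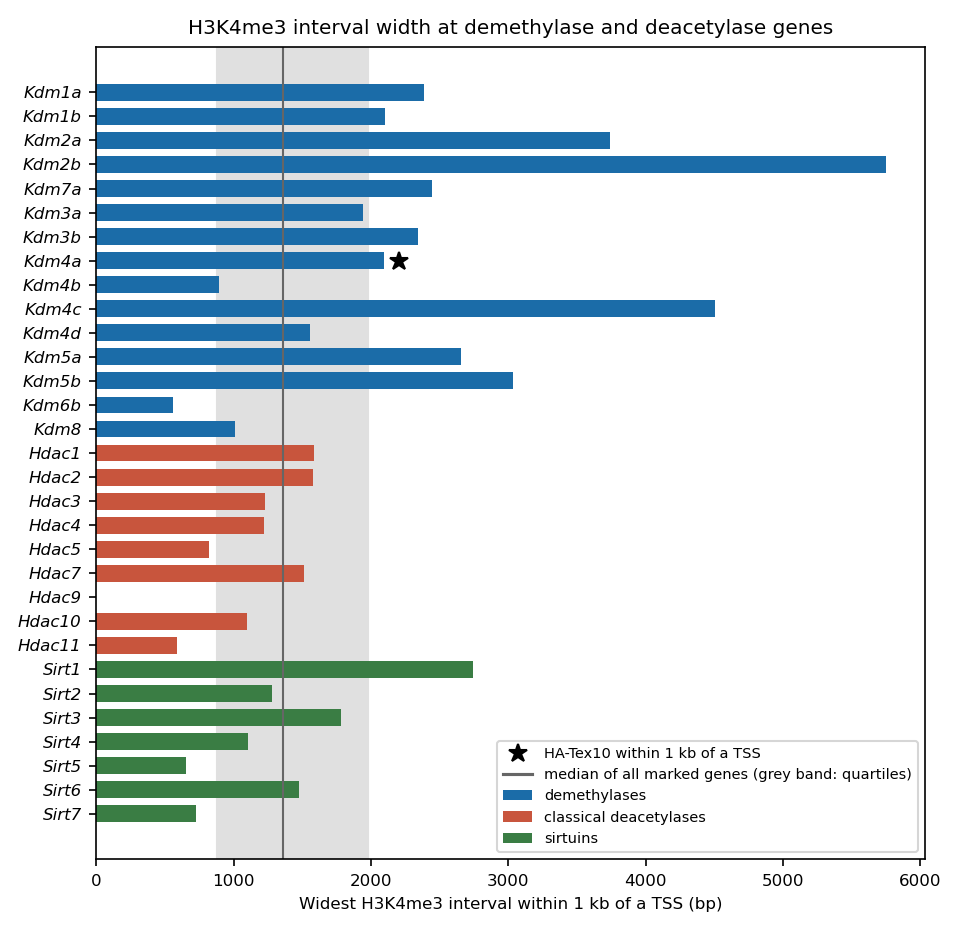
Width in bp (x axis) of the widest H3K4me3 interval within 1 kb of a coding TSS for each of the 31 genes (y axis), coloured by enzyme group; the grey line and band are the median and quartiles of all marked genes, and the star marks HA-Tex10 within 1 kb. Most demethylase bars pass the upper quartile, the classical deacetylases all end below it, and Hdac9 has no interval.

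The demethylase genes had the wider intervals. Their median was 2342 bp, against 1224 bp for the 8 marked classical deacetylases and 1276 bp for sirtuins. An interval of 2000 bp or more was present at 10 of 15 demethylases (66.7%), 0 of 8 classical deacetylases (upper limit from 3 counts 37.5%) and 1 of 7 sirtuins, against 24.4% of all marked genes. These counts depend on split intervals: with intervals within 1 kb merged they were 11 of 15, 2 of 8 (Hdac3 and Hdac4) and 2 of 7 (Sirt1 and Sirt4), against 31.9% of all marked genes. Of all marked genes with an interval this wide, 23.5% had HA-Tex10 at a TSS. In the set it was 1 of 11. The enzyme groups also differ in gene length, with medians of 61.6 kb for demethylases, 27.3 kb for classical deacetylases and 18.6 kb for sirtuins, and the part of length in the widths was not tested.

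Among the demethylases the widest interval belonged to Kdm2b, which encodes an H3 lysine 36 demethylase that binds unmethylated CpG and recruits a Polycomb complex. It spanned 122986178 to 122991925 on chromosome 5, wider than 99.6% of the intervals of marked genes, and held 5 coding TSS. Intervals of 1456 and 1814 bp covered the TSS 37.3 and 89.5 kb downstream. Its paralog Kdm2a, with the same substrate, had an interval of 3744 bp at the outer TSS and one of 2071 bp at a TSS 64.3 kb downstream. Kdm7a, which acts on H3 lysines 9 and 27, had 2442 bp.

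The Kdm5 genes encode the demethylases of H3K4me3 itself. Kdm5b had an interval of 3036 bp that began 88 bp upstream of its TSS and extended 2947 bp into the gene, followed by separate intervals of 904 and 632 bp inside the gene. Kdm5a had 2653 bp, an interval that it shares with the divergent gene Ccdc77. Kdm1a, which encodes the H3 lysine 4 demethylase of the CoREST complex, had 2384 bp, and Kdm1b, known for its role in oocytes, had 2101 bp shared with Tpmt. The H3 lysine 9 demethylase genes Kdm3a and Kdm3b had 1942 and 2342 bp. The Kdm1 and Kdm5 genes of the set thus had widths of 2101 bp or more. All were marked, as were 30 of the 31 genes of the set. Their nearest HA-Tex10 interval lay 76.3 kb from a TSS, at Kdm1a. Outside the set, Kdm5c on the X chromosome had 1031 bp and Kdm5d on the Y chromosome had no interval at a TSS.

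Kdm6b, which encodes an H3 lysine 27 demethylase, was the narrowest of the set by single interval and the widest once neighbours were joined. Its single coding TSS lies in a gap, 262 bp from the nearer interval, between intervals of 190 and 558 bp. When intervals within 1 kb were merged, 5 of them joined into 7722 bp, from 69413224 to 69420945 on chromosome 11, which is wider than 99.6% of marked genes treated alike. A further interval of 3621 bp inside the gene contains the start of a predicted RefSeq transcript. Merging also widened Hdac4 from 1220 to 2633 bp and Sirt5 from 653 to 1367 bp, by a split at the TSS that the map of intervals shows, and Sirt4 from 1106 to 2266 bp. It joined the widest interval to others at 7 of the 30 genes and left 22 as they were. At Kdm4c the promoter interval of 4507 bp was not joined to any other, and a separate group of 4 intervals farther downstream, within 1 kb of the TSS that held 7 CpG, became 4815 bp. Kdm8 stood at the low end of the demethylases with 1013 bp.

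**Figure D3:**
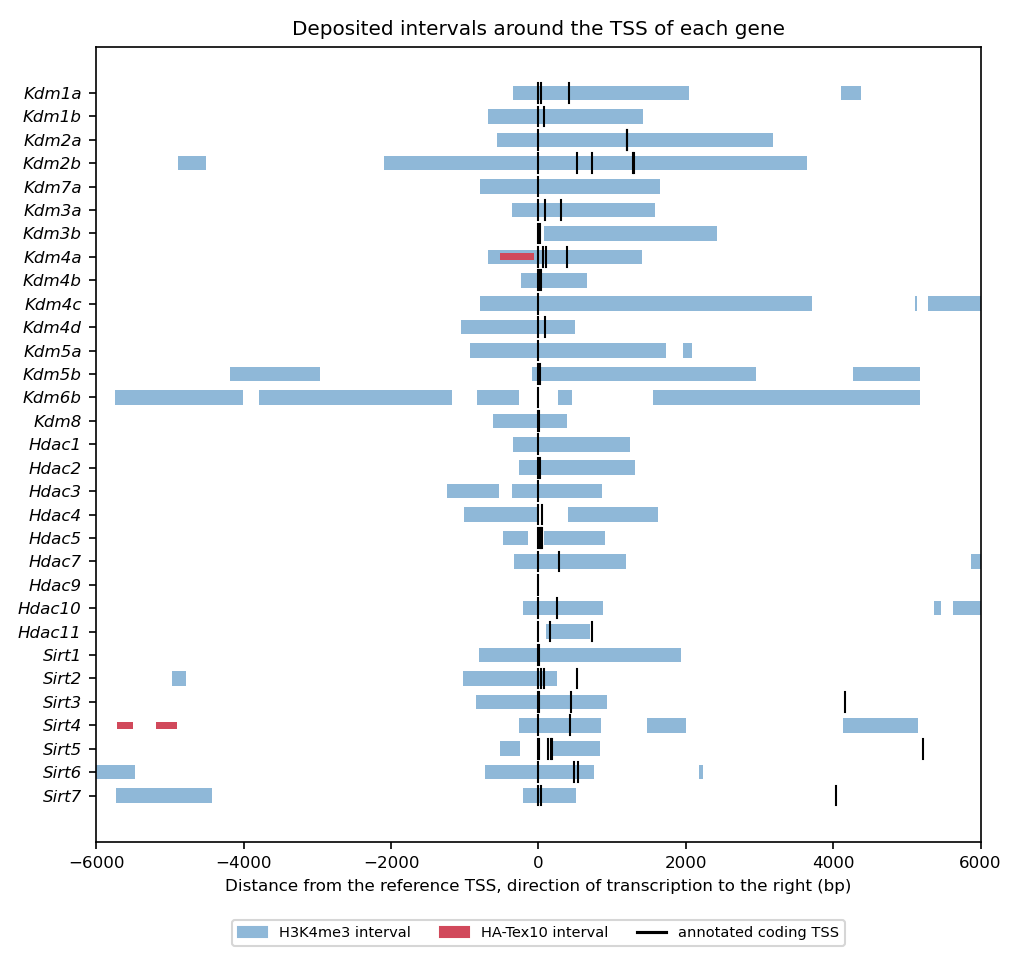
H3K4me3 and HA-Tex10 intervals within 6000 bp of a reference TSS for each gene (rows); the x axis is the distance in bp with transcription to the right, black ticks are annotated coding TSS, and the reference is the outermost TSS near the widest interval, or the outermost TSS of Hdac9. A single HA-Tex10 bar lies at a TSS, at Kdm4a, the Kdm6b TSS sits in a gap, and Hdac9 has no interval in the window.

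The class I deacetylase genes had intervals of 1228 to 1583 bp. Hdac1 and Hdac2, which encode catalytic subunits of the Sin3, NuRD and CoREST complexes, had intervals of 1583 and 1578 bp, and Hdac3, the subunit of the NCoR complexes, had 1228 and 709 bp with a gap between them. The nearest HA-Tex10 interval lay 41.6 kb from Hdac1, 1296837 bp from Hdac2 and 14.8 kb from Hdac3.

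The class IIa genes, which encode signal-regulated deacetylases that shuttle between nucleus and cytoplasm, differed from each other. Hdac4 was marked at 2 of 4 coding TSS, Hdac5 at 4 of 6, Hdac7 at 4 of 9 and Hdac9 at 0 of 5. At Hdac5 the widest interval, 823 bp, began 78 bp downstream of the outermost TSS. At Hdac7 the outer group of 4 TSS had its nearest H3K4me3 interval 12.1 to 12.4 kb away, while the TSS 12.7 and 13.0 kb downstream lay inside an interval of 1515 bp. The single class IIb and class IV genes, Hdac10 and Hdac11, had 1095 and 589 bp.

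Hdac9 spans 34047580 to 34917095 on chromosome 12. Its 5 coding TSS lay 288 to 378 kb from any H3K4me3 interval and held 8 to 13 CpG in 1000 bp. A pair of narrow intervals, 265 and 277 bp wide, lay near its 5′ end at 34906704 to 34906968 and 34907153 to 34907429. They are 10 and 138 bp from the starts of predicted RefSeq transcripts and 11 and 174 bp from a GENCODE transcript of retained-intron type, which the rule on coding TSS leaves out. With those starts counted, Hdac9 would be marked by short intervals. The upstream stretch printed above, at the outermost start, holds 0 CpG in 250 bases.

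Hdac9 was also the 1 gene of the set with HA-Tex10 inside its body. Of all coding genes, 9.86% had an interval between their annotated ends, a share that includes intervals at a TSS. A share away from TSS was not computed. Hdac9 is 869516 bp long, against a median of 17.6 kb for all coding genes, and the part of length was not tested. The HA-Tex10 interval in Hdac9 ran from 34067464 to 34067714 (251 bp), 369593 bp from the nearest coding TSS. It lay within an H3K4me3 interval of 904 bp, and the printed unit overlaps no annotated exon. The sequence there is a tandem repeat with a period of 212 bp, at which 72.0% of bases matched the base 1 period on, and the interval of 904 bp equals 4.26 periods. All of the 32-base words of the HA-Tex10 interval occur more than once in the reference. On chromosomes 1 to 19, 280 HA-Tex10 intervals (6.78%), this one included, shared at least a 32-base word with it. They lay on all 19 chromosomes, 274 of them overlapped H3K4me3, and 0 lay within 1 kb of a coding TSS.

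Of the 7 sirtuin genes, Sirt1, which encodes a nuclear deacetylase of histones and of transcription factors, had the widest interval, 2740 bp. It lay at TSS 42.7 kb downstream of the outermost annotated one, whose nearest interval was 411 bp wide and 694 bp away. The nuclear genes Sirt6 and Sirt7 had 1474 and 723 bp, and Sirt2, which encodes a mainly cytoplasmic enzyme, had 1276 bp. Among the genes of mitochondrial enzymes Sirt3 had 1779 bp, Sirt4 1106 bp and Sirt5 653 bp. The intervals at Sirt2, Sirt3 and Sirt6 also came within 1 kb of a coding TSS on the opposite strand, those of Nfkbib, Psmd13 and Ankrd24. Such a gene was present at 7 of the 30 marked genes, where the interval list does not separate the 2 promoters. The share over all marked genes was not computed, so this count has no background.

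Of the 31 genes 27 have more than 1 annotated coding TSS, and the mark did not cover them all. Of 106 coding TSS, 80 had an H3K4me3 interval within 1 kb. Of the 30 marked genes, 17 were marked at all TSS and 13 at only some. The 17 include Kdm7a, Kdm6b, Hdac1 and Hdac3, which have only 1 coding TSS and so could not be partly marked. The share of partly marked genes over all marked genes was not computed. The set has a median of 3 coding TSS per gene, against 2 for all coding genes. The marked TSS held a median of 61 CpG in the surrounding 1000 bp (range 7 to 151) and the 26 unmarked ones 15 (range 7 to 30). Over all coding TSS of these chromosomes the medians were 64 for 30135 marked and 11 for 21928 unmarked TSS. Within the 13 partly marked genes, each marked TSS held more CpG than each unmarked TSS in 12 of 13. The same count over all partly marked genes was not computed, so it has no background. Examples are 103 or more against 11 or fewer at Kdm1a and 124 or more against 15 or fewer at Hdac4. TSS of a gene that lie close together share most of their window and are not independent. At Hdac7 the margin was small, 22 against 20, because TSS 36.5 and 36.9 kb downstream counted as marked by an interval 199 and 550 bp away. The exception was Kdm4c, whose marked TSS held 88 and 7 CpG, the latter with its interval 946 bp away at the edge of the window, and whose unmarked outer TSS held 8. The printed Kdm4c stretches show this contrast, with 0 CpG in 250 bases upstream of the outer TSS and 16 in 164 bases upstream of the marked one.

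**Figure D4:**
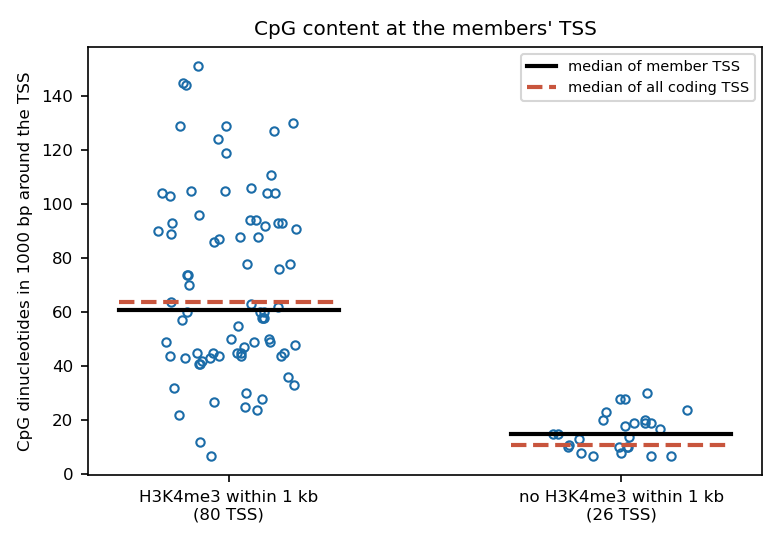
CpG dinucleotides in the 1000 bp around each of the 106 coding TSS of the set (points), for the 80 TSS with and the 26 TSS without H3K4me3 within 1 kb; solid lines are medians of the set (61 and 15) and dashed lines medians of all coding TSS (64 and 11). The unmarked TSS all hold 30 CpG or fewer, while the marked ones spread up to 151.

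CpG number and interval width were compared across genes. Spearman's rho between the CpG number at the outermost TSS and the widest interval was 0.33 over 12966 marked genes and 0.08 over the 30 of the set. It was 0.09 and 0.05 for the number of TSS. In 9 of the 30 genes the widest interval does not contain the outermost TSS, as at Sirt1 and Kdm4c, so CpG and width come from different places there. Over the genes where it does, rho with the CpG number was 0.32 for all 9170 and 0.21 for the 21 of the set. These describe genes of the same lists and carry no test.

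Promoter sequences of RefSeq, 250 bases before to 50 after a start, were found for 23 of the 31 genes, with 35 promoters. Short motifs were searched on both strands. The SP GC box, GGGCGG, was present in 22 of the 35 (62.9%), against 36.0% of 31396 promoters. Those promoters include unmarked genes, whose median GC content around the outermost TSS was 46.3%, against 59.4% for marked genes. A share for promoters of marked genes alone was not computed, and several of the 35 promoters belong to the same gene. NFY, CCAAT, was present in 37.1% against 37.3%, the E-box, CACGTG, in 8.57% against 7.14%, and ETS, CCGGAAGT, in 5.71% against 3.95%. The NRF1 palindrome was found at Sirt6 only and the TATA box, TATAAA, at Hdac9 only, in 0.968% and 13.6% of all promoters. CREB, TGACGTCA, and the YY1 motif were found in none of the 35, with 1.83% and 0.825% over all promoters. In the printed Kdm4a window the TATAAA letters occur once, in reverse, and the other 7 motifs do not occur.

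Inside the genes, over 1 kb from any coding TSS, there were 22 H3K4me3 intervals in 15 of the 31 genes, against 18.6% of all coding genes and 24.1% of marked ones. The genes of the set are longer, with a median of 41.8 kb against 17.6 kb for all coding genes, and the part of length in this count was not tested. Of these intervals 9 lay within 1 kb of another annotated start of the same gene, either a RefSeq transcript or a GENCODE transcript of another type. The widest of the others was 2860 bp, in Kdm4c, and the next 1267 bp, in Sirt1.

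Related chromatin genes were read from 4 lists, 77 genes of which 75 could be matched on these chromosomes. The list of JmjC genes was kept apart from the set by symbol, not by enzyme activity. All 75 were marked, with a median width of 2081 bp. An interval of 2000 bp or more was present at 40 of them (53.3%), against 24.4% of all marked genes. HA-Tex10 was at a TSS of 19 of the 75 (25.3%, Wilson interval 16.9 to 36.2%), against 9.13% of all coding genes and 14.3% of marked ones, and 1 of 31 in the set. Of all marked genes with an interval of 2000 bp or more, 23.5% had HA-Tex10 at a TSS. The part of width in the count of the lists was not tested. The lists were written with earlier results of these data known, and 4 of the 19 genes lie on chromosome 8, without which the share of all marked genes with HA-Tex10 falls from 14.3% to 12.7%. Without that chromosome the count was 15 of 68. No gene of the demethylase and deacetylase set lies there.

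Among JmjC genes without a Kdm symbol, 4 of 13 had HA-Tex10. They were Jmjd1c, the Kdm3 paralog, with intervals of 229 and 320 bp, Jarid2, a subunit of a Polycomb complex (410 bp), Jmjd6 (290 bp) and Tyw5, a tRNA-modifying enzyme (465 bp). Of 11 acetyltransferase genes 4 had it: Ep300, which encodes p300 (290 bp), Kat7 (176 and 185 bp), Kat6b (78 bp) and Kat5 (20 bp). In the complexes that hold Hdac1, Hdac2 or Kdm1a, 8 of 35 genes did (22.9%). Sin3b, the scaffold of a Sin3 complex, had 563 bp, and its partners Sap30, Ing1 and Ing2 had 673 bp, 465 and 492 bp, and 505 bp. These 4 lie on chromosome 8. Without that chromosome the count of this list was 4 of 30, against 12.7% of all marked genes. The others were Arid4b (410 bp), the histone chaperone gene Rbbp4 (367 bp), the CoREST scaffold Rcor1 (28 bp) and Phf21a (272 bp). Of 16 methyltransferase genes 3 did, namely Setdb1 (169 and 322 bp), Setd2 (145 bp) and Ezh1 (122 bp). Within Phf21a 67.2% and within an interval of Setdb1 all of the 32-base words were repeated in the reference.

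**Figure D5:**
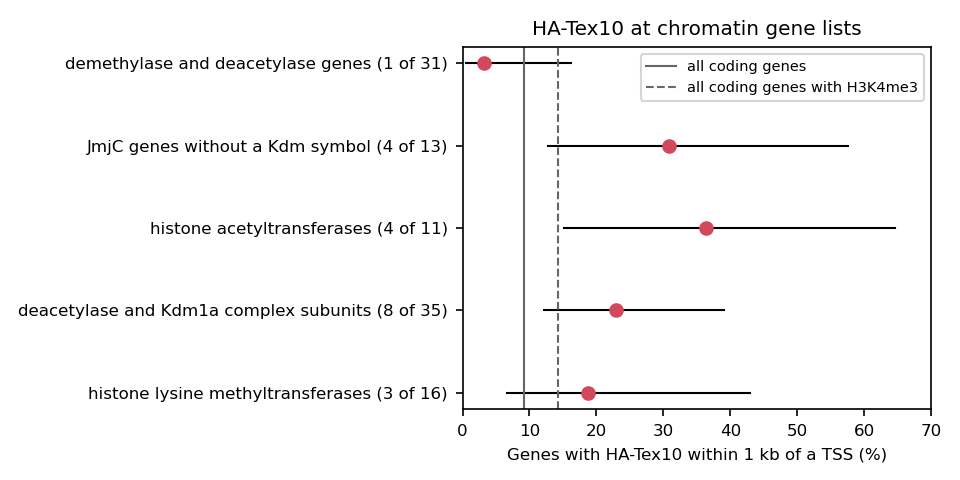
Share of genes with HA-Tex10 within 1 kb of a coding TSS (x axis, %) in the demethylase and deacetylase set and in 4 lists of related chromatin genes (y axis, with counts); points are shares, bars 95% Wilson intervals, and vertical lines all coding genes (9.13%) and all marked genes (14.3%). The set has the lowest share of the 5, and its interval (0.572 to 16.2%) overlaps that of each list.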

How the data were processed

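ChIP-seq intervals of day 2 germ cell-like cells were used as the authors deposited them, as start and end in bp with no score. The submitters' processing notes name Bowtie2 2.3.4.3, SAMtools 1.9, MACS2 2.1.2, HOMER and the build mm10. Thresholds, the use of input and the treatment of replicates are not given in the sources used here. A further HA-Tex10 list, a subset by interval name, was not used. On the assembled chromosomes 0 intervals ended past a GRCm38 chromosome end. TSS were taken from the coding transcripts of coding genes in GENCODE M21. Overlap needed 1 bp. An interval was mostly repeated when more than 50% of its words of 32 bases were found again in the assembled chromosomes (intervals under 100 bp were widened to 100 bp). Shares have Wilson 95% intervals, which cover counting error only, and 3 counts set the upper limit of a count of 0. No test was made, since each antibody has 1 list. The interval functions were tested on simulated data. Genes were named where a gene of the set had HA-Tex10 within 5 kb, lacked H3K4me3, was among the 5 widest or 5 narrowest, or differed from its family, and where a listed gene had HA-Tex10 at a TSS; the other genes of the set are given by family. The genes and lists were chosen with earlier results of these data known; the marker genes were chosen after the data were seen. Python 3.11.15, numpy 2.4.6, pandas 2.3.3 and scipy 1.17.1 were used.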

Additional observations from a re-analysis of the deposited data

How the results depend on the processing

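No paired analysis was possible because the deposited lists hold 1 set of intervals per antibody and no column of a single replicate, and for the same reason no replicate could be left out. The count of genes with HA-Tex10 at a TSS was 1 of 31 as reported and rose to 2 within 5 kb, by the addition of Sirt4, where the share of all coding genes rose to 11.2%. It stayed at 1 under 5 others, while the share of all coding genes moved from 9.13%. That share was 4.86% with HA-Tex10 intervals wider than the median, close to the 3.23% of the set. It was 10% within 2.5 kb, 8.43% with the outermost TSS only, 8.63% without mostly repeated intervals and 8.03% without chromosome 8. H3K4me3 was at 30 genes within 2.5 and within 5 kb (63.9% and 65.7% of all coding genes), 28 with the outermost TSS only (59.7%) and 27 with intervals wider than the median (51.5%). The median width was 1514.5 bp with the outermost TSS only and 2018 bp with intervals within 1 kb merged, against 1353 and 1506.5 bp over all marked genes. The Kdm4a interval met H3K4me3 under both overlap rules. Alternatives for the related lists gave 13 to 24 genes. The lowest count, 13 of 75, came with HA-Tex10 intervals wider than the median, against 4.86% of all coding genes. The highest, 24 of 75, came within 5 kb, against 11.2%, and without chromosome 8 it was 15 of 68, against 8.03%. These alternatives were chosen after seeing the data. So were the merged counts at 2000 bp and the restriction to genes whose widest interval contains the outermost TSS. Unknown depth and the lack of scores limit all absences: a gene without an interval may have fallen below the authors' threshold.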

Other observations

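Genes of the same families on the sex chromosomes had H3K4me3 at a TSS in 3 of 5 cases and HA-Tex10 in 0 of 5. The shares over all coding genes of the X and Y chromosomes were not computed, so these counts have no background. The sex of the cells was not taken into account. Kdm6a, the X-linked paralog of Kdm6b, had a widest interval of 1545 bp, Kdm5c, an H3K4me3 demethylase, 1031 bp and Hdac6, a tubulin deacetylase, 634 bp. Hdac8 on the X chromosome and Kdm5d on the Y chromosome had no interval at a TSS. The nearest HA-Tex10 interval to these 5 genes lay between 476 kb, at Kdm6a, and 3140 kb, at Kdm5d.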
